A study of Mus musculus with 4 samples.

Results

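The EGF family ligands and receptors were followed on the mouse arrays as 7 ligand genes (Areg, Ereg, Hbegf, Tgfa, Btc, Epgn and Nrg1) and 3 receptor genes (Egfr, Erbb2 and Erbb3). Members were all non-control spots that the array annotation assigns to one of these gene names. All 10 genes were present, with 39 of the 59305 non-control spots and 10 of the 36413 gene names. C2C12 is an established mouse myoblast line that divides in growth medium and can fuse into myotubes. In the siFxr1 condition, C2C12 cells were transfected with a small interfering RNA against exon 14 of Fxr1, which encodes an RNA-binding protein of the fragile X family. In the siControl condition they received a commercial random RNA of like GC content. Total RNA was taken 48 h after transfection. Experiment 1 and experiment 2 each gave 1 siFxr1 and 1 siControl sample, hybridised to 1 slide per experiment with 1 dye. The comparison asked how these transcripts differed when Fxr1 was depleted. A single siRNA was arrayed, so what is particular to its sequence and what follows from loss of Fxr1 cannot be told apart.

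EGF family ligands are made as membrane-anchored precursors, and metalloproteases of the ADAM family cut them free. A ligand bound to EGFR or to a related ErbB receptor makes receptors pair and phosphorylate each other, and the signal runs through Ras and the MAP kinases to ERK. Areg, Tgfa and Epgn bind EGFR, Ereg, Hbegf and Btc bind EGFR and ErbB4, and Nrg1 binds ErbB3 and ErbB4, for which ErbB2 is the shared partner without a ligand of its own. In muscle, neuregulin from the nerve is best known for its part at the synapse, and EGF ligands act on myoblasts as growth factors.

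The oligonucleotide listed for the knockdown is shown first, because every siFxr1 value below rests on it.

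siFxr1 exon 14: gcaauccauacagcuuacuugaua

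The promoters of the 3 ligand genes of chromosome 5 that had an entry in the RefSeq table of GRCm38.p6 follow, from 250 bases before the start site to 30 bases after it. They are shown because these genes lie side by side and were higher in siFxr1 on both arrays. Capitals mark the cAMP response element TGACGTCA, bound by CREB, and the TATA box TATAAA, and the AP-1 site TGANTCA was looked for in the same way on both strands.

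Areg, chr5:91139349-91139628, plus strand: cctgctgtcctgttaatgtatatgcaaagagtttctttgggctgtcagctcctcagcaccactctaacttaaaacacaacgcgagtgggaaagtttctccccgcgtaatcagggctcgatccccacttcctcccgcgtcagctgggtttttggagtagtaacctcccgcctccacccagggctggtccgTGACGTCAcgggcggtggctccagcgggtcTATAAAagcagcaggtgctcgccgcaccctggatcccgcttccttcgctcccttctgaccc
Epgn, chr5:91027267-91027546, plus strand: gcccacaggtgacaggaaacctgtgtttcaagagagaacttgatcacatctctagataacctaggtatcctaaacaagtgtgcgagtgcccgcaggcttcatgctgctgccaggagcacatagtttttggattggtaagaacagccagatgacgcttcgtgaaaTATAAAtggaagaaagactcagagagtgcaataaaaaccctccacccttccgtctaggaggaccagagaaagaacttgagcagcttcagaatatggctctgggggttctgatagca
Btc, chr5:91402965-91403244, minus strand: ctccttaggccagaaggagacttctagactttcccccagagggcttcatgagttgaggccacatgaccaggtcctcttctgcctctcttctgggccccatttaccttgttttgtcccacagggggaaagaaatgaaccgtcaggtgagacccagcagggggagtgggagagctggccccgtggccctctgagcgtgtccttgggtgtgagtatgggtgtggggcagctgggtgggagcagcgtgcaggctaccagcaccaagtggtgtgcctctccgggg

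The Areg window held the cAMP response element with its first base at -61 and a TATA box at -31, counted from the start site. Windows of the same length around 32851 start sites held the first motif in 1.74% and the TATA box in 13.1% of cases. The Epgn window held TATAAA at -86 and the Btc window held neither motif. AP-1 sites, present in 7.46% of windows, were in none of the 3. These matches describe letters and not binding.

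Fxr1 was lower in both siFxr1 samples. Its brighter probe read 10.15 and 10.77 in siFxr1 and 13.84 and 13.71 in siControl (normalised log2 intensity, experiment 1 and then experiment 2), a log2 ratio of siFxr1 over siControl of -3.31 (difference of the condition means). Of the 55681 probes, 45.4% to 52.9% were well above background on an array, and no spot was saturated. Arrays of the same experiment were more alike than arrays of the same condition. RNA integrity was 8 in the siFxr1 sample of experiment 1 and 9 in the other 3 samples. The libraries' myoblast identity was checked on 8 markers, of which 6, including Myod1, Pax7 and Des, were well above background and Myf5 and Msc were on none of the arrays.

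Of the ligands, 5 of 7 had both siFxr1 arrays above both siControl arrays: Areg, Ereg, Hbegf, Btc and Epgn. The same separation was found for 16.5% of the 19139 genes that were clear of background in each sample of a condition. Epgn was so on its siFxr1 arrays alone, and its place among the 5 rests on siControl values not well above background. The log2 ratios of the 5 ligands, siFxr1 over siControl, lay between 1.19 and 1.82 with 2 arrays per condition. Neither Egfr nor Erbb2, the receptors that were well above background, showed such a separation. In the limma fit over all 55681 probes with the condition as its only term, no member passed an adjusted p under 0.05, nor did any other probe (0%), and no probe had a B value above 0 (0%), B being the log odds that a probe differs. At an unadjusted p under 0.05 there were 2764 probes (4.96%), and 1 member at its brightest probe, Ereg, was among them. With 2 arrays against 2, an exact two-sided permutation test cannot go below p = 0.333. Because RNA of whole cultures was measured, fewer cells of a type and less RNA per cell cannot be told apart.

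**Figure D1:**
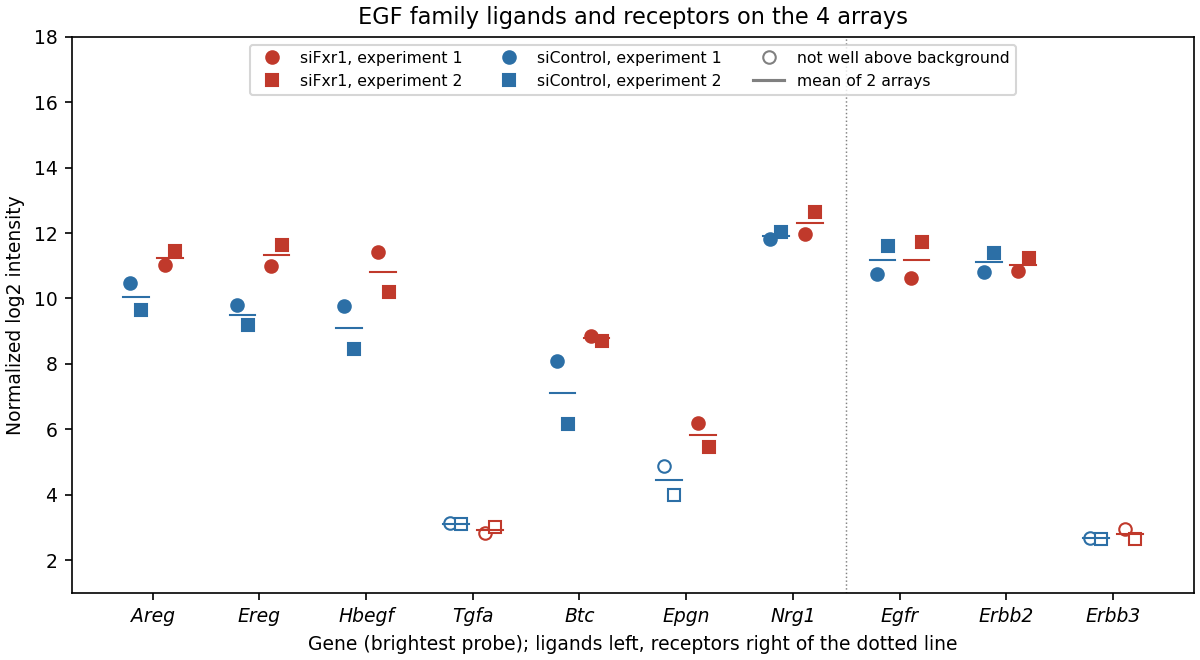
Normalised log2 intensity of the brightest probe of each gene (vertical axis) on the 4 arrays, with circles for experiment 1, squares for experiment 2, bars for the mean of 2 arrays and open symbols where no array of the condition was well above background. Both siFxr1 points lie above both siControl points for Areg, Ereg, Hbegf, Btc and Epgn, and levels of different genes are not comparable between probes.

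Epiregulin (Ereg) had the largest difference of the members well above background on all 4 arrays. Its probe (A_55_P2096947, chr5:91522553-91522612 of mm9) read 11.01 and 11.64 in siFxr1 and 9.81 and 9.20 in siControl, in experiment 1 and experiment 2. All siFxr1 values were above all siControl values, and the higher siFxr1 value and the lower siControl value both came from experiment 2. The log2 ratio was 1.82 (SE 0.38, n = 2 and 2, limma unadjusted p = 0.0139, adjusted p = 0.950), from 1.20 in experiment 1 and 2.45 in experiment 2.

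Amphiregulin (Areg), the neighbour of Ereg on chromosome 5, was probed by A_52_P482897 (chr5:91570090-91570149 of mm9). The probe is shown because it defines the part of the transcript that was read.

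Areg probe: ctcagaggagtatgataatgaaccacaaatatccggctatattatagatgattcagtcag

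Areg read 11.03 and 11.45 in siFxr1 and 10.47 and 9.64 in siControl. The order of the 4 arrays was that of Ereg, with experiment 2 at both ends. The log2 ratio was 1.19 (SE 0.39, limma's adjusted p = 0.975), made up of 0.56 in experiment 1 and 1.82 in experiment 2.

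Heparin-binding EGF-like growth factor (Hbegf, A_51_P181565, chromosome 18) binds heparan sulphate at the cell surface as well as its receptor. It read 11.43 and 10.20 in siFxr1 and 9.77 and 8.45 in siControl. Both conditions were lower in experiment 2, and the difference was nearly the same in the experiments, at 1.66 and 1.75. The log2 ratio was 1.70 (SE 0.72, limma's adjusted p = 0.975) with no block. It was 1.09 without the siFxr1 array of experiment 1, 2.31 without that of experiment 2, 2.36 without the siControl array of experiment 1 and 1.04 without that of experiment 2.

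Betacellulin (Btc, A_52_P672689, chr5:91786948-91787007 of mm9) read 8.87 and 8.71 in siFxr1 and 8.09 and 6.15 in siControl. The siFxr1 arrays were close together, whereas the siControl array of experiment 2 was far below that of experiment 1. The log2 ratio was 1.67 (SE 0.78, limma's adjusted p = 0.975), 0.77 in experiment 1 and 2.56 in experiment 2. It was 0.70 without the siControl array of experiment 2 and 2.64 without that of experiment 1. With other background settings it was 1.05 to 1.31.

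Epigen (Epgn, A_51_P187491, chr5:91464119-91464178 of mm9), a low-affinity ligand of EGFR, lay close to background. It read 6.20 and 5.47 in siFxr1, well above background on both arrays, and 4.87 and 4.00 in siControl, not well above background on either. With the software's background correction it was at least 2.11-fold higher in siFxr1, set against the lowest signal well above background on each siControl array or the probe's own value, whichever was higher. The fitted log2 ratio of 1.40 (SE 0.47, limma's adjusted p = 0.975) was between 0.32 and 0.58 with other background settings, which are smaller differences than this bound, so the size of the difference depends on the background correction.

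Neuregulin 1 (Nrg1, A_55_P1985433, chr8:32928500-32928559 of mm9), a ligand of ErbB3 and ErbB4, read 11.96 and 12.65 in siFxr1 and 11.83 and 12.02 in siControl. The conditions overlapped, since the siControl value of experiment 2 was above the siFxr1 value of experiment 1. Its log2 ratio was 0.38 (SE 0.32, limma's adjusted p = 0.975). Transforming growth factor alpha (Tgfa), read by 10 spots, was not well above background on any array and is given no fold change.

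Of the 8 members among the 19139 genes, 7 were well above background on all 4 arrays, and Epgn entered through its siFxr1 arrays alone. In the direction of lower values in siFxr1, 14.2% of genes and 0 of the 8 had conditions that did not overlap. A difference of at least 2-fold higher in siFxr1 within each experiment was found for 2.11% of the genes and, among the members well above background on all 4 arrays, for Ereg and Hbegf. Epgn passed that size only at siControl values that were not well above background, so it is not counted. The median log2 ratio was 1.19 over the 7 members and 0.02 over the 17819 genes that cleared background on every array. The choice of genes was made with earlier results on these arrays known, so these counts are a description.

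**Figure D2:**
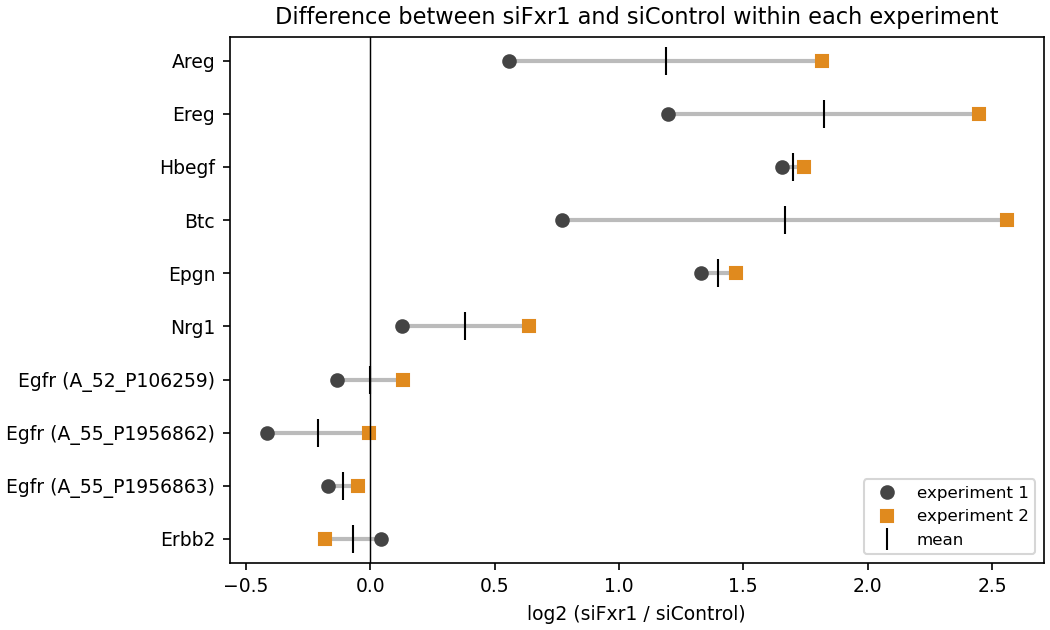
Difference between siFxr1 and siControl on the log2 scale (horizontal axis) for every member probe that was well above background in at least 1 condition, in experiment 1 (circles) and experiment 2 (squares), with the mean as a vertical tick. The experiments differ little for Hbegf (1.66 and 1.75) and most for Btc (0.77 and 2.56), the probes of Egfr and Erbb2 lie between -0.42 and 0.13, and the points of Epgn rest on siControl values not well above background.

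The samples of an experiment form a pair, so the fit was repeated with the experiment as a block. Over all probes the block gave no call (lowest adjusted p = 0.535, 0 probes with B above 0, 4927 at an unadjusted p under 0.05). Over the 25540 probes kept by the filter on dim probes, the block gave 280 probes with an adjusted p under 0.05 (1.10%) and 354 with B above 0 (1.39%). Among the 354, siFxr1 was higher for 211 and lower for 143. Hbegf rose in this fit, with limma's adjusted p of 0.0440, a B value of 0.90 and an SE of 0.23 in place of 0.72. It was the only member past either threshold there. Limma's adjusted p was 0.0630 for Epgn, 0.0758 for Ereg, 0.128 for Btc and 0.158 for Areg. Epgn entered this fit through its siFxr1 arrays alone.

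The receptors gave values near 0. Egfr, the receptor shared by 6 of the 7 ligands, was read by 3 probes, of which A_52_P106259 (chr11:16813815-16813874 of mm9, 10 spots) is annotated to NM_207655 and the other 2 to NM_007912. The brightest, A_52_P106259, read 10.61 and 11.74 in siFxr1 and 10.75 and 11.60 in siControl. The experiments separated the arrays here and the conditions did not, and the log2 ratio was 0.00 (SE 0.57, limma's adjusted p = 1.000). The 10 spots of this probe had an SD of at most 0.10 within an array, which is the spread of spots and not of cultures. The probes annotated to NM_007912 had log2 ratios of -0.21 and -0.11, and 1 of them (A_55_P1956863, chr11:16783556-16783615 of mm9) is shown as the reading of Egfr that varied little across arrays.

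Egfr probe A_55_P1956863: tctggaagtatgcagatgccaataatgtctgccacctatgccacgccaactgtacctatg

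Erbb2 (A_52_P49250, chr11:98298103-98298162 of mm9, 10 spots), the receptor with no ligand of its own, read 10.85 and 11.22 in siFxr1 and 10.81 and 11.40 in siControl. The conditions overlapped, with a log2 ratio of -0.07 (SE 0.31, limma's adjusted p = 0.994). Erbb3, a neuregulin receptor with a weak kinase, was not well above background on any array. The SEs of Egfr and Erbb2 were 0.57 and 0.31 without the block and 0.21 and 0.20 with it. Differences within these errors were not detectable, and larger ones could be missed too. Without the block, Ereg at 1.82 (SE 0.38) was not called (limma's adjusted p = 0.950).

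Members also differed between the experiments, which were compared in a model with condition and experiment as terms. Hbegf was lower in experiment 2, with differences from experiment 1 of -1.31 in siControl and -1.23 in siFxr1 and a fitted value of -1.27 (SE 0.19). Egfr at its brightest probe was higher in experiment 2, by 0.99 (SE 0.21). The other Egfr probes differed by -0.29 and 0.22, so the probes of this gene did not give 1 answer. Over all 55681 probes no adjusted p was under 0.05 (0%), with 11172 probes and 3 members, Hbegf, Epgn and Egfr, at an unadjusted p under 0.05. The siControl values of Epgn were not well above background. With the filter on dim probes, 17.0% of 25540 probes passed, and Hbegf (limma's adjusted p = 0.0206) and Egfr (limma's adjusted p = 0.0410) were the members among them.

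Within the siControl samples, Areg, Ereg, Hbegf, Btc and Epgn were all lower in experiment 2, with differences from -0.61 (Ereg) to -1.94 (Btc) on the log2 scale. For Epgn neither siControl value was well above background. Within the siFxr1 samples, Areg and Ereg were higher in experiment 2, by 0.43 and 0.64, and Hbegf, Btc and Epgn lower. The 10 muscle differentiation transcripts on the array moved with the experiments too, with a median of -2.08 for experiment 2 against experiment 1 and of -0.10 for siFxr1 against siControl. Myh3, an embryonic myosin, read 15.64 and 13.64 in siFxr1 and 16.20 and 14.33 in siControl. The part of differentiation in the members' values was not tested.

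Epgn, Ereg, Areg and Btc lie together on chromosome 5, with 323 kb between the first and the last of their probes on mm9. Within 500 kb on either side, 8 other genes passed the filter on dim probes. Their median log2 ratio was 0.22. Pf4, a platelet chemokine, had a log2 ratio of -0.73 in experiment 1 and -1.27 in experiment 2, and Mthfd2l, a mitochondrial folate enzyme next to Epgn, one of 0.44 and 0.65. A noncoding transcript of the array annotation between Epgn and Ereg had 3 probes, with log2 ratios of 0.39, 0.44 and 0.80. These neighbours were named by position, outside the rule for named genes, after their values were seen.

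**Figure D3:**
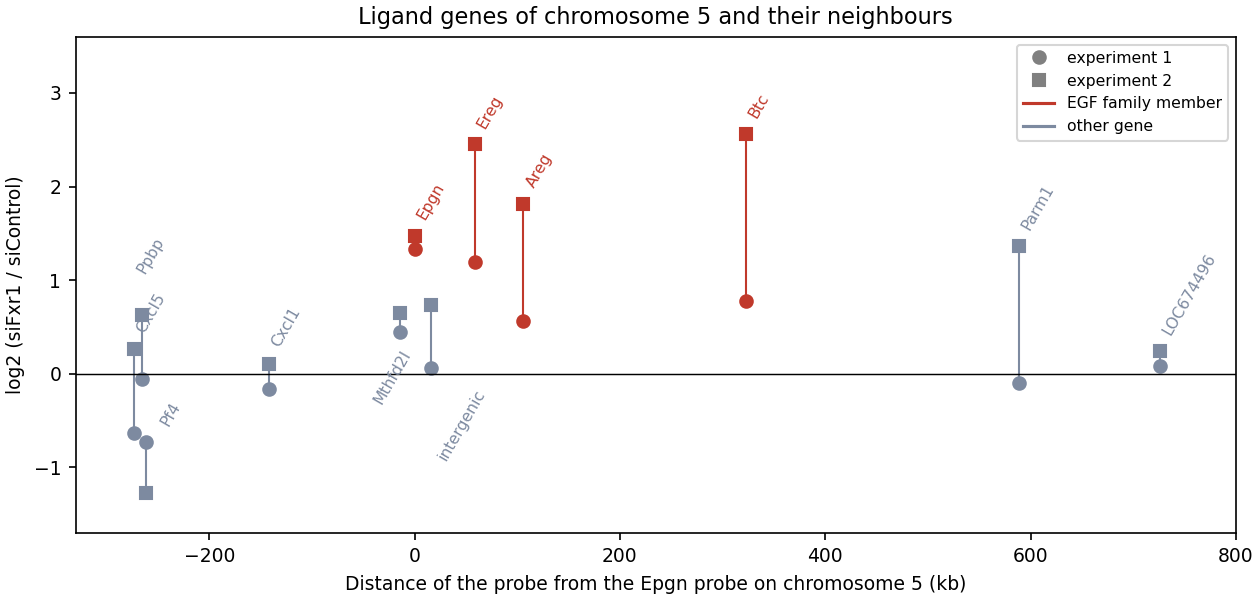
Difference between siFxr1 and siControl on the log2 scale (vertical axis) for genes of the chromosome 5 neighbourhood at their brightest probe, against the distance of the probe from that of Epgn in kb, with circles for experiment 1 and squares for experiment 2. Areg, Ereg and Btc reach 1.82 to 2.56 in experiment 2 and 0.56 to 1.20 in experiment 1. Of the 8 others, Parm1 lies above 1 and Pf4 below -1 in experiment 2. Mthfd2l is the highest of these in experiment 1, at 0.44. The points of Epgn rest on siControl values not well above background.

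Genes whose 4 values were among the most like those of Ereg, after each gene was centred on its own mean, were Zmat3 (root mean square difference 0.073 on the log2 scale), Csn3 (0.092), Scg5 (0.100) and Ccbe1 (0.114). They were ranked over 4 arrays among the 17819 genes well above background on all 4. Zmat3, which encodes a zinc finger protein of the p53 response, read 11.86 and 12.50 in siFxr1 and 10.64 and 10.21 in siControl.

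Of the other genes of the family, only Egf was well above background, and it read 5.81 and 6.95 in siFxr1 and 5.88 and 6.90 in siControl, a log2 ratio of -0.01. Nrg2, Nrg3, Nrg4 and Erbb4, the further neuregulins and the fourth receptor, were not well above background on any array. No gene of this list passed the test.

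Genes that free the ligands or hold them at the surface were measured as 17 proteases, inhibitors and partners. None passed an adjusted p under 0.05 in the limma fit, and the median log2 ratio was 0.39. At an unadjusted p under 0.05 there were 5, beside 1322 of the 19139 genes clear of background in each sample of a condition. Both siFxr1 arrays were above both siControl arrays for 7, beside 16.5% of all genes, and below for 3, beside 14.2%. Adam17, the main protease that frees Areg and Hbegf, read 6.13 and 5.55 in siFxr1 and 7.45 and 6.82 in siControl, a log2 ratio of -1.30 (SE 0.37). It was the only gene of the list at least 2-fold lower within each experiment, as were 1.48% of all genes. Adam17 was well above background on all 4 arrays, but its siFxr1 values lay in the range of those of Epgn. On the siFxr1 arrays the lowest values well above background were 5.36 and 4.19. How far the ratio of Adam17 depends on the background correction was not tested. Timp3, an inhibitor of that protease, had a log2 ratio of 1.47 (SE 0.56) and read 13.62 and 14.16 in siFxr1 and 11.78 and 13.04 in siControl. Sdc1, a heparan sulphate proteoglycan, had a log2 ratio of 1.32 (SE 0.21), with 1.33 and 1.30 in the experiments, and Sdc4, another, one of 1.29 (SE 0.57). Timp3 and Sdc1 were at least 2-fold higher within each experiment, as were 2.11% of all genes.

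Receptor brakes and turnover genes were measured as 19 genes, with a median log2 ratio of 0.21 and none called. Limma's unadjusted p was under 0.05 for 4 of them, beside 1322 of the 19139 genes. Errfi1, a feedback inhibitor that binds the kinase domain of EGFR, read 15.18 and 15.14 in siFxr1 and 13.35 and 14.10 in siControl, a log2 ratio of 1.44 (SE 0.33). Socs4 and Socs5, which promote receptor degradation, had log2 ratios of 1.00 (SE 0.29) and 0.81 (SE 0.20). Ptprj, a receptor-type phosphatase, had one of 0.61 (SE 0.48). Cblc, a ubiquitin ligase of the Cbl family, was lower in siFxr1, with log2 ratios of -1.06 and -1.78 in the experiments, but cleared background on 3 of the 4 arrays and was named after its values were seen. Arrays of the conditions did not overlap for 6 of the 19, with siFxr1 higher in 5 of them (16.5% of all genes) and lower in 1 (14.2% of all genes). Among 18 adaptors, Ras proteins and kinases the median was 0.02 and none was called. At an unadjusted p under 0.05 there were 0 of these, beside the same 1322 of 19139 genes. In siFxr1, 2 of the 18 were wholly higher (16.5% of all genes) and 1 wholly lower (14.2% of all genes). The 4 with the largest differences were Nras (0.78), Rasa1 (0.77), Mapk3 (-0.68) and Braf (0.52), on the log2 scale.

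ERK-dependent transcripts, whose genes are switched on downstream of the receptors, were measured as 20 genes with a median log2 ratio of 0.55. No gene passed an adjusted p under 0.05 without the block. Limma's unadjusted p was under 0.05 for 5 genes, beside 1322 of the 19139 genes of the array. Dusp6 and Spry4 had a B value above 0 with the block and the filter on dim probes, as had 1.39% of the probes. Spry4 entered that fit through its siFxr1 arrays alone, so its B value rests on siControl values not well above background. Both siFxr1 arrays were above both siControl arrays for 12 genes, beside 16.5% of all genes, and below for 0, beside 14.2%. The 12, and the 5 at an unadjusted p under 0.05 in the limma fit, include Spry4 and Dusp5. Both of these entered through their siFxr1 arrays alone, so the counts rest partly on them. Over the 18 genes of the list well above background on all 4 arrays, the median log2 ratio was 0.54. Dusp6, an ERK phosphatase, read 14.91 and 15.50 in siFxr1 and 13.10 and 13.06 in siControl, a log2 ratio of 2.13 (SE 0.27). Spry1, a Sprouty inhibitor of receptor signalling, had a log2 ratio of 2.11 (SE 0.82) and Egr2, an immediate early factor, one of 1.75 (SE 0.35). Etv4, an ETS factor, read 12.08 and 13.09 in siFxr1 and 11.57 and 11.67 in siControl. Spry4 and Dusp5, named after their values were seen, were at least 2-fold higher in each experiment together with Dusp6, Spry1 and Egr2. Spry4 was well above background on no siControl array and Dusp5 on 1. The 20 genes were listed with earlier results on these arrays known and are no independent sign of receptor signalling.

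**Figure D4:**
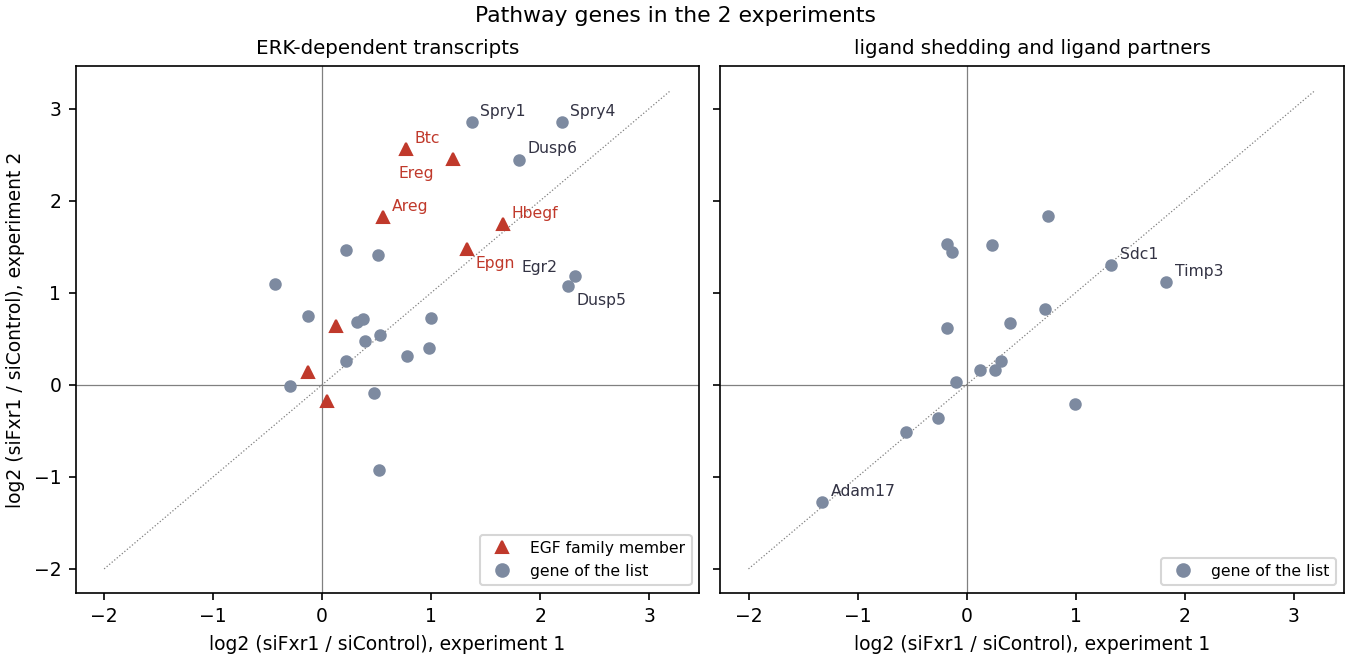
Differences between siFxr1 and siControl on the log2 scale in experiment 1 (horizontal axis) and experiment 2 (vertical axis) for ERK-dependent transcripts with the EGF family members (left) and for ligand shedding genes and partners (right), with a dotted line of equal values. Of the listed genes, Spry1, Spry4, Dusp6, Egr2 and Dusp5 (left) and Timp3 and Sdc1 (right) lie above 1 in both experiments. Adam17 (right) lies below -1 in both. The points of Spry4 and Epgn rest on siControl values not well above background.

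EGF family ligands are also made by epithelial and immune cells, so markers of such cells were read. Of 7 epithelial markers, Epcam, Cdh1 and Cldn4 were not well above background on any array, and 3 were clear of background in each sample of a condition. The summed linear signal of all 7 was 1878 to 2283 in siFxr1 and 1856 to 2176 in siControl. Krt14 made up nearly all of that sum and had a log2 ratio of -0.04. The median log2 ratio of the 3 that were clear of background was 0.77, the value of Krt8. Krt8 and Krt18 were among the 3 through their siFxr1 arrays alone, so this median rests on how they were kept. Krt14 was the only epithelial marker well above background on all 4 arrays. Krt8, well above background on both siFxr1 arrays and 1 siControl array, read 5.96 and 6.23 in siFxr1 and 5.27 and 5.37 in siControl. Krt18, the keratin that pairs with it, read 7.71 and 5.22 in siFxr1 and 6.09 and 2.85 in siControl. It was well above background on both siFxr1 arrays and 1 siControl array. Krt18 thus passed the filter through siFxr1 and had a B value above 0 with the block and the filter. Krt8, Krt18 and Cd68 were named after their values were seen. Of 6 macrophage markers on the array, Ptprc and Emr1 were not well above background on any array. The summed signal of all 6 ran from 8264 to 18158 in siFxr1 and from 5986 to 18732 in siControl. The 3 well above background on all arrays were Csf1r (log2 ratio 0.85, SE 0.36), Itgam (0.25) and Cd14 (0.00). Cd68, well above background on 2 of the arrays, had a log2 ratio of -0.92 (SE 0.38). Of 5 endothelial markers, 3 were well above background. The sums over all 5 were 3762 to 4428 in siFxr1 and 3169.5 to 3472 in siControl. The part of these transcripts in the members' values was not tested.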

How the data were processed

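Total RNA of C2C12 cells was labelled with Cy3 and hybridised to 4 Agilent 8x60K mouse arrays. The authors deposited the intensity of every spot, background-corrected by Agilent Feature Extraction 10.7.3.1 and not normalised between arrays, and a table of quantile-normalised intensity, which was used as an alternative.

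In R 4.3.3 with limma 3.58.1, log2 values of the corrected intensity were quantile-normalised over 59305 non-control spots. Spots marked as outliers were then set to missing, and spots of a probe were averaged into 55681 probes, so a member with 10 spots rests on more readings than one with 1. A probe was well above background on an array when at least 0.5 of its spots were so marked by the software. The filter on dim probes kept those so marked on both arrays of at least 1 condition. Fits used lmFit and eBayes, with the condition alone or with the experiment as a block. The study's methods name limma, quantile normalisation and a B value above 0 on means of ratios, and a fit of the 4 ratios was run as an alternative. P-values were adjusted by Benjamini-Hochberg over all probes fitted. Fits were tested on simulated data. The number of arrays, 2 per condition, limits the precision.

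Conditions and experiments were read from the labels. The labels number the experiments and each shared a slide, so they pair the samples. Arrays of the same number departed from their condition means together (correlation 0.714), and the median residual SD fell from 0.38 to 0.18 with the block. A gene was represented by its brightest probe. Named genes were the members, Fxr1, up to 4 genes of each list with the largest difference among those well above background on all arrays, and the 5 genes nearest to the leading member, of which 1 is not reported here. Members and lists were chosen with earlier results of these data known. Positions of probes are the array's own, on mm9, and promoters are from RefSeq on GRCm38.p6, with 6 of 10 members matched. Signals at a probe depend on its sequence, so levels were compared only between arrays. Normalisation between arrays removes a change shared by all transcripts.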

Additional observations from a re-analysis of the deposited data

How the results depend on the processing

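Member fold changes were recomputed 161 times, of which 138 kept their direction and side of the threshold, 16 changed sign and 7 passed an adjusted p under 0.05 that the main value had missed. All sign changes were of Egfr and Erbb2. Egfr, 0.00 in the reported fit, was -0.015 with the 75th percentile, -0.024 with normexp, -0.037 with no background correction or the authors' table and -0.038 with the median minus background, with and without the block, and -0.11 as the median over its probes. Leaving out 1 array each moved Egfr between -0.56 and 0.56 and Erbb2 between -0.37 and 0.23, and Areg (0.77 to 1.60), Ereg (1.50 to 2.14), Hbegf (1.04 to 2.36), Btc (0.70 to 2.64), Epgn (0.96 to 1.84) and Nrg1 (0.03 to 0.73) stayed above 0. Under those settings no probe and no member was called.

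With the replicate block and the filter on dim probes, 280 probes had an adjusted p under 0.05 and 354 a B value above 0, and 1 member, Hbegf, passed both rules. With the replicate block and normexp, 410 probes and 1 member had a B value above 0. The 4 ratios of siFxr1 over siControl arrays taken as observations, which share arrays, called 1064 probes, 1107 by B, and 0 members. The block joined with further settings was added after the data were seen. It called 1307 probes and 932 by B with the 75th percentile (3 members, Ereg, Hbegf and Btc, and 1 by B), 57 and 538 with no background correction (1 member by B), 105 and 345 with the median minus background (2 members by B), 156 and 590 with the authors' table (1 member, and 2 by B), and 351 and 354 with the filter and normexp (2 members, Ereg and Hbegf, and 2 by B). The replicate block alone changed no call. Between the experiments, 2 members were called with normexp, no background correction, the authors' table, the filter or a variance prior with a trend, and 1 with the median minus background. With the filter, 17.0% of 25540 probes were called too. For the other settings the share of all probes is not given, so those counts are no result about the members. Scaling to the 75th percentile moved the median of all genes from 0.03 to 0.08. Why the counts differ was not tested. Btc was 1.05 to 1.31 and Epgn 0.32 to 0.58 under the other background settings. Signal close to background limits Epgn. Btc was well above background on all 4 arrays, and why its ratio moved was not tested.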
